A study of Rattus norvegicus with 6 samples.

Results

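The mitosis genes described here are 42 genes of the G2 and M phases of the cell cycle, chosen by symbol: the mitotic kinases and cyclins, the spindle checkpoint, kinetochore and centromere proteins, mitotic kinesins, spindle proteins and cytokinesis proteins. Of these, 41 matched a row of the deposited table, which holds 25926 rows in all, and Ccnb2 was not analysed here. Their RNA was measured by sequencing total RNA from livers of Sprague-Dawley rats labelled as 4 weeks old. In the TPN group, 3 rats were fed for 7 days by total parenteral nutrition, in which all nutrients go into a vein, and they carry the disease label PNALD (parenteral nutrition-associated liver disease). In the control group, 3 rats were given saline at 0.9% and are labelled normal. No genotype or transgene is named for either group, and both groups share strain, age label and tissue.

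Dividing cells switch these genes on late in the cycle. The kinase Cdk1 with its cyclins drives entry into mitosis, the spindle checkpoint holds chromosome separation back until every kinetochore is attached, and the anaphase-promoting complex then marks cyclins for destruction. Most hepatocytes of a grown liver rest outside the cycle, whereas the liver of a young rat is still growing and holds some dividing cells. Levels are given in FPKM, fragments counted relative to transcript length and library size, which can be compared between genes. Fold changes from limma are differences of log2(FPKM + 1), TPN minus control, a scale that understates changes of genes under about 1 FPKM. In liver as a whole, fewer cycling cells and less of these RNAs per cycling cell cannot be told apart.

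All 41 measured mitosis genes had lower means in TPN liver than in control liver, against 51.9% of the 20562 rows with a value above 0. In 40 of the 41, every TPN rat lay below every control rat, against 8.33% of those rows, and 6.08% had every TPN rat above every control rat. The exception was Cenpa, the centromeric histone variant. The median log2 fold change of the 41 was -0.95, against -0.006 over all rows tested. Among the 38 genes with no value listed at 0, the mean FPKM in TPN liver was lower by a median of 6.11-fold, with a range from 1.95-fold for Aurka to 17.3-fold for Ccna2. For 31 genes the lowest control rat was at least 2 times the highest TPN rat, and for 14 it was at least 4 times.

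The limma test over all 20562 rows, with Benjamini-Hochberg adjustment at 0.05, called none of the 41 and no row of the table (percent called 0). The adjusted p of the 41 ran from 0.113 to 0.535. At an unadjusted p under 0.05 the same fit held 41 of 41 mitosis genes, all lower in TPN, against 5.97% of all rows lower and 3.26% higher in TPN. Rows close to 0 fill part of that table. When rows with a mean under 0.1 FPKM were left out, a step that removed no mitosis gene, 7 of the 41 passed limma's adjusted threshold, against 0.165% of 16361 rows called lower in TPN. These 7 were Cdkn3, Cdk1, Ckap2, Spc24, Mki67, Ccna2 and Stmn1. The same count of 7 passed in the fit restricted to a mean of at least 1 FPKM, where 19 mitosis genes remained and 0.220% of 11362 rows were called lower in TPN. Both filters use the mean over all rats of both groups. With a TPN mean under 0.1 FPKM, 5 mitosis genes met the filter at 0.1 FPKM only through the control rats. In TPN liver alone only 2 mitosis genes, Stmn1 and Mad2l1, had a mean of at least 1 FPKM. The others of the 19 thus met that filter through the control rats, and this fit is no separate support. Leaving out a single rat from the fit with a mean of at least 0.1 FPKM left 2 of the 7 without control 2 or without TPN 1, and 0 without control 1, control 3, TPN 2 or TPN 3. With median-ratio scaling or quantile normalisation added to that fit, 1 gene passed, Cdkn3. With 3 rats against 3, an exact permutation test of 1 gene cannot give a 2-sided p under 0.10.

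**Figure D1:**
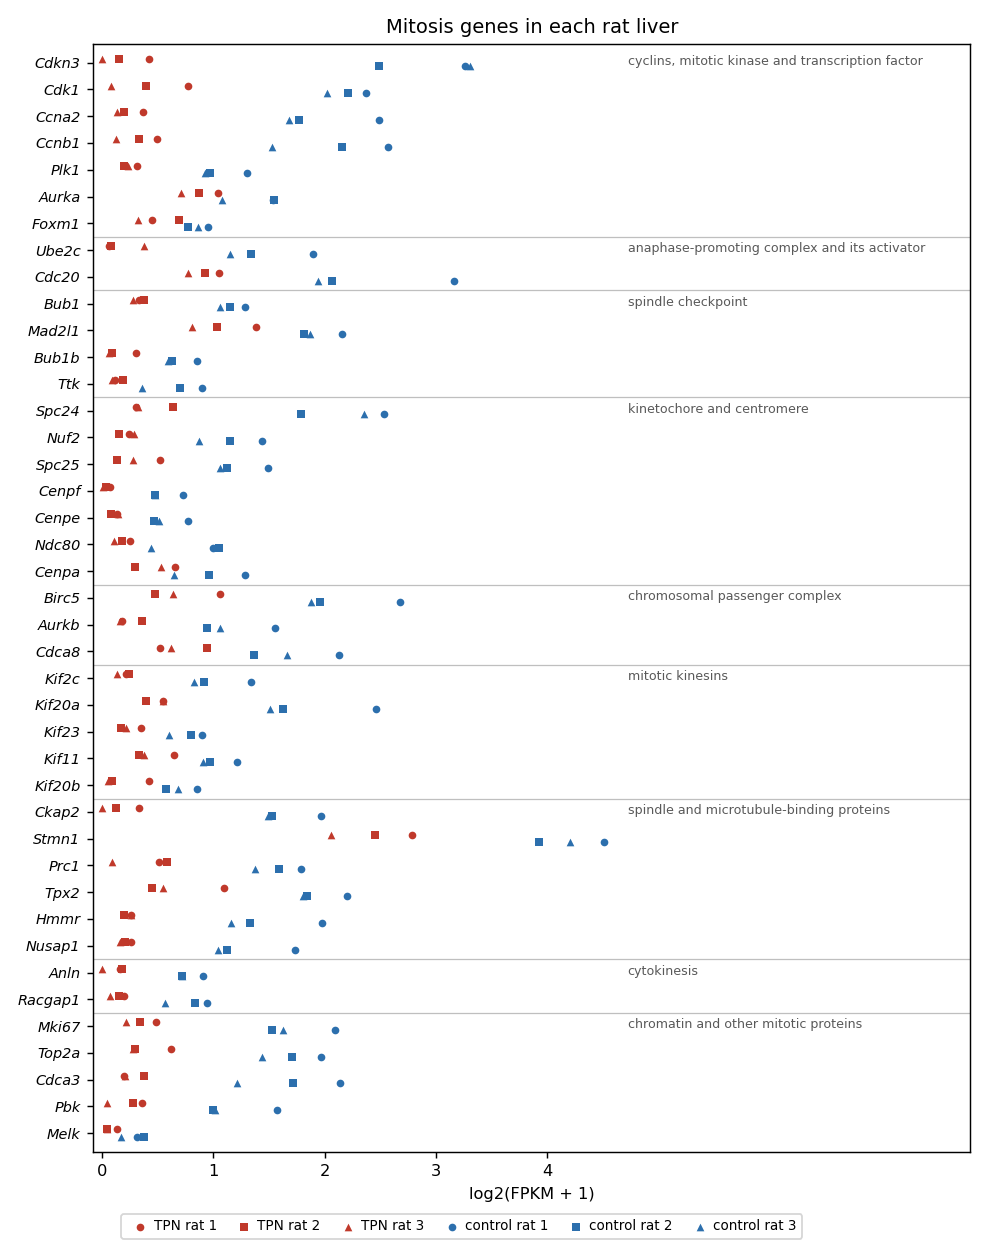
Level of each of the 41 mitosis genes in each rat on the log2(FPKM + 1) axis, 1 gene per row grouped by role, with TPN rats in red above control rats in blue and a marker shape for each rat number. In every row but Cenpa the red points lie left of the blue ones, and 3 genes are listed at 0 in TPN rat 3.

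The FPKM of a library summed to between 509630 and 544670, between 11129 and 11424 rows reached 1 FPKM per library, and sequencing depth is unknown because the table holds no counts. All 9 hepatocyte markers looked at were present in every library, with Alb, the serum albumin, between 12828 and 48388 FPKM. Lcn2, an acute-phase protein named after its values were seen, had 9127, 172 and 77.2 FPKM in TPN rats 1, 2 and 3, against 3.68, 112 and 7.29 FPKM in control rats 1, 2 and 3. TPN 1 stood above all other rats, and control 2 stood above the other controls but within the range of the TPN rats. Without TPN 1 and control 2 together, 41 of 41 mitosis genes were lower in TPN without overlap, among 4274 of 20562 rows. In that fit limma again called 0 of them, with 35 of 41 at an unadjusted p under 0.05, among 2509 of 20562 rows in either direction.

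Many genes of this phase share promoter elements. The CHR (cell cycle genes homology region) is bound by complexes built on the MuvB core, and CCAAT boxes near it are bound by the factor NF-Y, while genes of DNA replication more often carry E2F sites. RefSeq promoters of build GRCr8, from 250 bases before to 50 bases after the annotated start, were found for 34 of the 41 genes, with 36 promoters. There was no entry for Aurkb, Ccna2, Foxm1, Pbk, Racgap1, Tpx2 or Ube2c. The promoters printed here, where these elements can be read, are those of the 5 genes with the smallest limma p (Cdkn3, Cdk1, Ckap2, Spc24 and Mki67) and of the textbook genes Ccnb1 and Cdc20. Capitals mark matches to the CHR letters TTTGAA and the variant TTCGAA, to the NF-Y box letters CCAAT, and to the E2F letters TTTCCCGC or TTTCGCGC or TTTGCCGC or TTTGGCGC, each searched on both strands.
Cdk1 (chr20:19265043-19265342, GRCr8, plus strand): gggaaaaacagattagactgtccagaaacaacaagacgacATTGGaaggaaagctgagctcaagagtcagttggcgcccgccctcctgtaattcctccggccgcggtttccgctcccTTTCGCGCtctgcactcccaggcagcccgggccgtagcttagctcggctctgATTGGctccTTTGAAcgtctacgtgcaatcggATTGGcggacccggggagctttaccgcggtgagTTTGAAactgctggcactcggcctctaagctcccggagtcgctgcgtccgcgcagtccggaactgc
Cdc20 (chr5:137255750-137256049, GRCr8, minus strand): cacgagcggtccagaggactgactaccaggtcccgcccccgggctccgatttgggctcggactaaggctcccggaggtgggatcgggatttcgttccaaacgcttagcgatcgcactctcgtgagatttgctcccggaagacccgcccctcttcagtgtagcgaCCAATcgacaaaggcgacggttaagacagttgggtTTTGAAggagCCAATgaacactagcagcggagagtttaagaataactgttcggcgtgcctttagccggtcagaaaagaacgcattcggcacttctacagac
Mki67 (chr1:199952544-199952843, GRCr8, minus strand): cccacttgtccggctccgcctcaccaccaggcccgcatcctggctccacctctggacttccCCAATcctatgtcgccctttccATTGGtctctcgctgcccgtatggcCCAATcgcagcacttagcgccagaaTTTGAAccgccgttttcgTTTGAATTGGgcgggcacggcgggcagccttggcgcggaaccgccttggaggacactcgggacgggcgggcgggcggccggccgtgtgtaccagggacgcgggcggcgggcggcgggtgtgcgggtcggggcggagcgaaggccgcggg
Ckap2 (chr16:76541864-76542163, GRCr8, plus strand): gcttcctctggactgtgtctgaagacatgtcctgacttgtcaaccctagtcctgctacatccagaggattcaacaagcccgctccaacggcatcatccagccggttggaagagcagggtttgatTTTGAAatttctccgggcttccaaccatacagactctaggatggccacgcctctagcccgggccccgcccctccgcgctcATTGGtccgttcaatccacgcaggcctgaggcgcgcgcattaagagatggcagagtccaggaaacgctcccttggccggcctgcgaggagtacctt
Cdkn3, at 1 of 2 annotated starts (chr15:22502136-22502435, GRCr8, plus strand): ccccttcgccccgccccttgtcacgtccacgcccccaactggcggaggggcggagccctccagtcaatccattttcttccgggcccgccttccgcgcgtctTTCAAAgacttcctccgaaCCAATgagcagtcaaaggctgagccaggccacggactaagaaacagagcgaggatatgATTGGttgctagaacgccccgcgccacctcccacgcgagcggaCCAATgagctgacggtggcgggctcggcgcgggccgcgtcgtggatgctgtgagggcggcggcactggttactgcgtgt
Ccnb1 (chr2:33655176-33655475, GRCr8, minus strand): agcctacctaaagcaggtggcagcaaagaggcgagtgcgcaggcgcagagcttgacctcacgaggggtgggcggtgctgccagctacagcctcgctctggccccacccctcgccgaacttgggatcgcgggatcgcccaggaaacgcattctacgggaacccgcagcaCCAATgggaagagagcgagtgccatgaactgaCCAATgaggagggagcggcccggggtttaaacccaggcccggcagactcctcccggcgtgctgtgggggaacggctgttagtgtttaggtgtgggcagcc
Spc24 (chr8:28581250-28581549, GRCr8, minus strand): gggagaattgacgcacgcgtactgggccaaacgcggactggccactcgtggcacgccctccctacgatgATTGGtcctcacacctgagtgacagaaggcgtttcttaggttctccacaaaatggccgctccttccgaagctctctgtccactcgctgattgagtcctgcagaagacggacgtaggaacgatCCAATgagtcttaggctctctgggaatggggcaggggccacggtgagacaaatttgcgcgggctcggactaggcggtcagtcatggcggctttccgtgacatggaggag

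In the Cdk1 promoter, CHR letters began 72 and 16 bases before the annotated start, with CCAAT letters on the other strand beginning 210, 81 and 49 bases before it and E2F letters 133 bases before it. Cdc20 had CHR letters at 51 bases and CCAAT letters at 86 and 41 bases before its start. In Mki67 the CHR letters at 99 bases shared a base with CCAAT letters on the other strand at 94 bases. Ccnb1 and Spc24 had CCAAT letters and no CHR match in this window. Over the 36 promoters of mitosis genes, 24 held a CHR match (66.7%), against 19.7% of all 33469 promoters in the table. A CCAAT match stood in 26 (72.2%), against 37.5% of all promoters, and both stood together in 19 (52.8%), against 7.95%. E2F letters stood in 2 of the 36 (5.56%), those of Cdk1 and Stmn1, against 2.14% of all promoters. Of the 72 promoters of other mitosis genes, 52 held CHR letters (72.2%), 40 CCAAT letters (55.6%) and 3 E2F letters (4.17%). By comparison, 20 of 42 promoters of DNA replication genes held E2F letters (47.6%), 10 CHR letters (23.8%) and 25 CCAAT letters (59.5%). CCAAT letters also stood in 9 of 15 promoters of CDK inhibitors and growth arrest genes (60%). A high CCAAT share was thus not particular to mitosis genes. These matches are letters in a window and were not tested for binding.

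**Figure D2:**
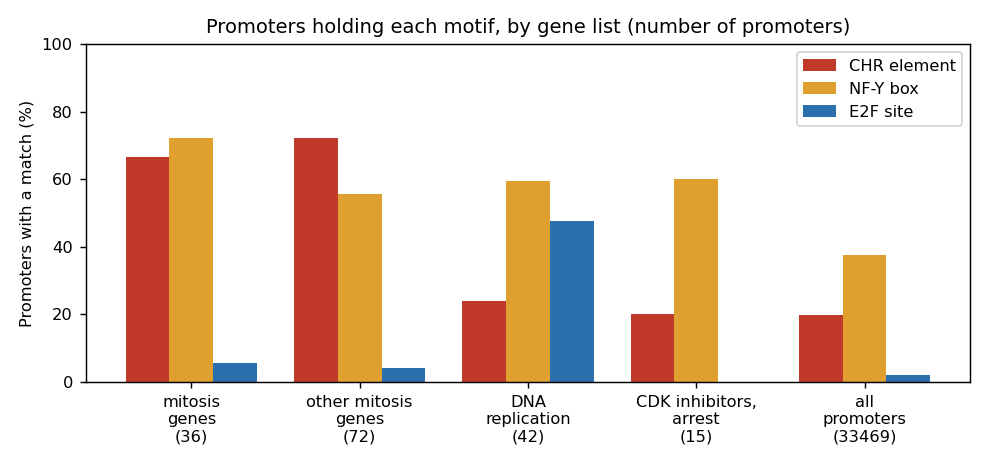
Share of promoters (percent, y axis) that hold CHR, NF-Y box (CCAAT) or E2F letters, for mitosis genes and other gene lists, with the number of promoters under each group and all promoters at the right. CHR letters stood in 66.7% of mitosis gene promoters and 19.7% of all promoters, and E2F letters in 47.6% of replication gene promoters.

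The kinase Cdk1, its cyclins and their regulators, 7 genes measured, had the lowest ratio of summed levels of the 9 roles. Their sum was 3.40, 2.42 and 1.31 FPKM in the TPN rats, against 26.6, 17.6 and 18.9 FPKM in the control rats, 8.85-fold lower in TPN by the means. Cdk1 had 0.703, 0.312 and 0.0543 FPKM in TPN rats 1, 2 and 3, against 4.16, 3.61 and 3.06 FPKM in control rats 1, 2 and 3. All 3 TPN rats lay under 1 FPKM and all 3 controls above 3 FPKM, and the log2 fold change was -1.79 (SE 0.20), for which limma gave adjusted p = 0.124 over all rows and 0.0377 after the filter at 0.1 FPKM.

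Ccna2, cyclin A2, had 0.292, 0.147 and 0.0942 FPKM in TPN rats, against 4.62, 2.40 and 2.21 FPKM in control rats, with control 1 far above the other controls. Its log2 fold change was -1.75 (SE 0.23), for which limma gave adjusted p = 0.154 over all rows and 0.0457 after the filter at 0.1 FPKM. Ccnb1, cyclin B1, had 0.408, 0.259 and 0.0923 FPKM in TPN rats, against 4.94, 3.45 and 1.88 FPKM in control rats. The cyclin B1 groups lay apart by a wide margin, but the controls themselves spanned more than 2-fold, and limma's adjusted p was 0.195 over all rows and 0.0679 with a mean of at least 0.1 FPKM.

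Cdkn3, a phosphatase that acts on cyclin-dependent kinases, gave the smallest p of the 41. It had 0.337 and 0.113 FPKM in TPN rats 1 and 2 and was listed at 0 in TPN rat 3, against 8.57, 4.59 and 8.89 FPKM in control rats 1, 2 and 3. Unlike most of the 41, Cdkn3 was highest in control rat 3, and its log2 fold change was -2.82 (SE 0.25), for which limma gave adjusted p = 0.113 over all rows and 0.0203 after the filter at 0.1 FPKM. Plk1, the polo-like kinase that acts at centrosomes and kinetochores, had 0.239, 0.147 and 0.174 FPKM in TPN rats, against 1.46, 0.956 and 0.894 FPKM in control rats, a clean separation at a low level. Aurka, the spindle pole kinase, and Foxm1, a transcription factor that activates genes of this phase, differed least by ratio. Aurka averaged 0.843 ± 0.209 FPKM in TPN liver and 1.64 ± 0.459 FPKM in control liver (SD, n = 3 each), and Foxm1 averaged 0.409 ± 0.186 FPKM in TPN liver and 0.816 ± 0.112 FPKM in control liver. The groups of both genes nearly met, since the highest TPN rat had 1.06 FPKM of Aurka, against 1.11 FPKM in the lowest control rat, and 0.615 FPKM of Foxm1, against 0.705 FPKM in the lowest control rat.

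Cdc20 and Ube2c serve the anaphase-promoting complex, the first as its activator and the second as the enzyme that supplies it with ubiquitin. Cdc20 had 1.07, 0.899 and 0.708 FPKM in TPN rats, against 7.95, 3.19 and 2.84 FPKM in control rats. The TPN rats were close together while control 1 was more than 2 times the other controls, and limma's adjusted p was 0.282 over all rows. Ube2c had 0.0455, 0.0585 and 0.296 FPKM in TPN rats, against 2.72, 1.53 and 1.22 FPKM in control rats, a 13.7-fold lower mean in TPN. It was one of 5 genes in which TPN rat 3 was the highest TPN rat.

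All 4 spindle checkpoint genes were lower in TPN without overlap, with log2 fold changes from -0.87 for Mad2l1 to -0.52 for Ttk. By ratio of means, however, Ttk differed most of the 4, at 6.23-fold, and Mad2l1 least. Bub1, a checkpoint kinase, had 0.259, 0.297 and 0.212 FPKM in TPN rats, against 1.43, 1.21 and 1.08 FPKM in control rats. The rats of each group were close to each other for Bub1, and the log2 fold change was -0.83 (SE 0.11), for which limma gave adjusted p = 0.154 over all rows and 0.0707 after the filter at 0.1 FPKM. Mad2l1, the checkpoint protein that inhibits Cdc20, averaged 1.13 ± 0.434 FPKM in TPN liver and 2.86 ± 0.50 FPKM in control liver (SD, n = 3 each), only 2.53-fold lower in TPN. Bub1b, another checkpoint protein, averaged 0.114 ± 0.105 FPKM in TPN liver and 0.617 ± 0.162 FPKM in control liver, and Ttk, the kinase that starts the checkpoint signal, 0.0944 ± 0.0396 FPKM in TPN liver and 0.588 ± 0.288 FPKM in control liver.

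The NDC80 complex, which ties kinetochores to microtubules, was covered in all 4 subunits. Spc24 had 0.231, 0.552 and 0.250 FPKM in TPN rats, against 4.79, 2.44 and 4.12 FPKM in control rats. The lowest control was more than 4 times the highest TPN rat, and the log2 fold change was -1.81 (SE 0.22), for which limma gave adjusted p = 0.138 over all rows and 0.0377 after the filter at 0.1 FPKM. Its partner Spc25 averaged 0.247 ± 0.169 FPKM in TPN liver and 1.36 ± 0.397 FPKM in control liver, and Nuf2 0.170 ± 0.0562 FPKM in TPN liver and 1.25 ± 0.438 FPKM in control liver (SD, n = 3 each). Ndc80 itself had 0.189, 0.134 and 0.077 FPKM in TPN rats, against 1.0, 1.07 and 0.358 FPKM in control rats. Control rat 3 lay between the other control rats and the TPN rats, and limma's adjusted p was 0.356 over all rows. Of the centromere genes, Cenpf averaged 0.0285 ± 0.0216 FPKM in TPN liver and 0.480 ± 0.155 FPKM in control liver, a 16.9-fold lower mean at very low levels. Cenpe, a kinetochore motor, averaged 0.0848 ± 0.0256 FPKM in TPN liver and 0.507 ± 0.177 FPKM in control liver. Cenpa had 0.575, 0.228 and 0.445 FPKM in TPN rats, against 1.44, 0.941 and 0.567 FPKM in control rats, so that TPN rat 1 lay just above control rat 3.

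The chromosomal passenger complex corrects faulty attachments and later guides cytokinesis. Aurkb, its kinase, had 0.135, 0.281 and 0.117 FPKM in TPN rats, against 1.94, 0.927 and 1.08 FPKM in control rats. Birc5, the complex's survivin subunit, had 1.08, 0.392 and 0.555 FPKM in TPN rats, against 5.40, 2.88 and 2.67 FPKM in control rats. Cdca8, its borealin subunit, averaged 0.628 ± 0.256 FPKM in TPN liver and 2.37 ± 0.914 FPKM in control liver (SD, n = 3 each). The 3 subunits were 3.78-fold to 7.41-fold lower in TPN, with limma adjusted p from 0.214 to 0.271 over all rows.

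The 5 mitotic kinesins, motors that build and move the spindle, were lower in TPN without overlap. Kif11, which pushes the spindle poles apart, had 0.567, 0.258 and 0.301 FPKM in TPN rats, against 1.31, 0.959 and 0.876 FPKM in control rats. The smallest ratio among the kinesins was that of Kif11, at 2.79-fold, and the largest was that of Kif2c, a microtubule depolymerase, at 7.25-fold. Kif20a, a motor of the central spindle, averaged 0.410 ± 0.0867 FPKM in TPN liver and 2.81 ± 1.47 FPKM in control liver (SD, n = 3 each). Kif23, another motor of the central spindle, averaged 0.185 ± 0.0802 FPKM in TPN liver and 0.706 ± 0.177 FPKM in control liver. The remaining kinesin, Kif20b, was 4.36-fold lower in TPN.

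Among spindle and microtubule-binding proteins, Stmn1 (stathmin, which binds free tubulin) was the most abundant of all 41 genes. It had 5.90, 4.48 and 3.17 FPKM in TPN rats, against 21.8, 14.2 and 17.4 FPKM in control rats. Stmn1 was also the single gene at 1 FPKM or more in all 3 TPN rats, whereas 23 genes were in all 3 control rats, and its log2 fold change was -1.78 (SE 0.24), for which limma gave adjusted p = 0.154 over all rows and 0.0457 after the filter at 0.1 FPKM. Ckap2, a spindle-associated protein, had 0.256 and 0.0893 FPKM in TPN rats 1 and 2 and was listed at 0 in TPN rat 3, against 2.91, 1.88 and 1.81 FPKM in control rats 1, 2 and 3. Its log2 fold change was -1.51 (SE 0.17), for which limma gave adjusted p = 0.124 over all rows and 0.0377 after the filter at 0.1 FPKM. Tpx2, which nucleates spindle microtubules and activates Aurka, had 1.13, 0.360 and 0.463 FPKM in TPN rats, against 3.59, 2.59 and 2.49 FPKM in control rats. Prc1, which bundles microtubules of the central spindle, and the spindle proteins Hmmr and Nusap1 were 6.13-fold, 10.5-fold and 9.72-fold lower in TPN.

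For cytokinesis, Anln (anillin, a scaffold of the contractile ring) had 0.119 and 0.134 FPKM in TPN rats 1 and 2 and was listed at 0 in TPN rat 3, against 0.872, 0.645 and 0.641 FPKM in control rats 1, 2 and 3. Racgap1, a partner of Kif23 in the central spindle, averaged 0.101 ± 0.0514 FPKM in TPN liver and 0.727 ± 0.230 FPKM in control liver (SD, n = 3 each). Of the chromatin proteins, Mki67 (the proliferation marker Ki-67) had 0.399, 0.262 and 0.158 FPKM in TPN rats, against 3.27, 1.88 and 2.09 FPKM in control rats. Its log2 fold change was -1.41 (SE 0.18), for which limma gave adjusted p = 0.154 over all rows and 0.0457 after the filter at 0.1 FPKM. Top2a, the topoisomerase that untangles sister chromatids, had 0.540, 0.224 and 0.211 FPKM in TPN rats, against 2.91, 2.26 and 1.70 FPKM in control rats (limma adjusted p = 0.160 over all rows and 0.0547 with a mean of at least 0.1 FPKM). The 3 remaining genes were Cdca3, with an 11.7-fold lower mean in TPN, and the kinases Pbk and Melk, with 7.55-fold and 4.41-fold lower means. Melk was the lowest of the 41 in control liver, at 0.223 ± 0.0901 FPKM.

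The rats of a group kept much the same order across genes. Among the controls, rat 1 was the highest for 37 of 41 genes and rat 3 the lowest for 30. Among the TPN rats, rat 1 was the highest for 26 genes and rat 3 the lowest for 26. Summed over the 41 genes, the level was 21.7, 15.6 and 11.6 FPKM in TPN rats 1, 2 and 3, against 125, 77.9 and 78.7 FPKM in control rats 1, 2 and 3. Without Stmn1 the sums were 15.8, 11.2 and 8.44 FPKM in TPN rats, against 103, 63.7 and 61.3 FPKM in control rats. The lowest control sum was thus well above the highest TPN sum with and without the most abundant gene. Without control 1, the median log2 fold change was -0.78, and 40 of 41 genes were lower in TPN without overlap, among 2220 of 20562 rows, since fewer rats overlap less often.

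**Figure D3:**
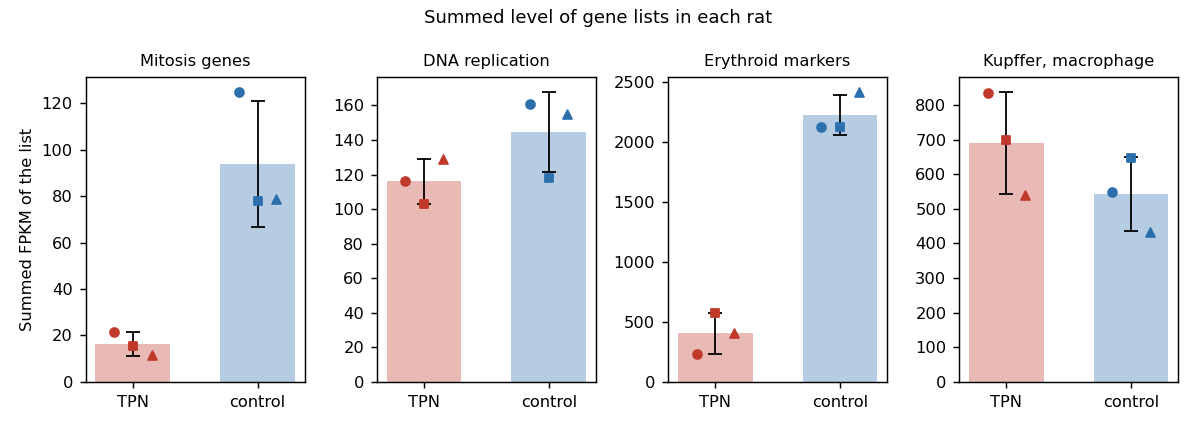
Summed FPKM of 4 gene lists in each rat (points, with circles for rat 1, squares for rat 2 and triangles for rat 3), with the mean as a bar and the SD as an error bar, TPN left of control. Mitosis genes summed to 11.6 to 21.7 FPKM in TPN rats and 77.9 to 125 FPKM in control rats, while the sums of DNA replication genes overlapped between the groups. The sums of other mitosis genes, not drawn here, also overlapped, with 133 to 192 FPKM in TPN rats and 180 to 222 FPKM in control rats.

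A second list of 84 mitosis genes, with 83 of them measured in 84 rows, had negative log2 fold changes in 77 rows, and the median was -0.39. Its sums overlapped, with 133, 133 and 192 FPKM in TPN rats, against 222, 182 and 180 FPKM in control rats. By the mean sums it was 1.28-fold lower in TPN, against 5.75-fold for the first list. In 55 rows the TPN rats lay below the control rats without overlap, and in 1 row above them, against 8.33% and 6.08% of all rows tested. None passed limma's adjusted threshold over all rows or after the filter at 0.1 FPKM. An unadjusted limma p under 0.05 was found in 51 rows, all lower in TPN, against 5.97% of all rows tested. The 4 with the smallest p at a mean of at least 0.5 FPKM were Dlgap5, Kif22, Ect2 and Cdc25b. Ect2, which activates RhoA for cytokinesis, had 0.0872, 0.124 and 0.0816 FPKM in TPN rats, against 1.81, 1.07 and 1.03 FPKM in control rats. Kif22, a chromosome-binding kinesin, had 0.391, 0.175 and 0.0602 FPKM in TPN rats, against 2.40, 1.95 and 1.40 FPKM in control rats. The row above without overlap was Cks1b, a small Cdk-binding protein named after its values were seen, with 14.1, 13.5 and 21.2 FPKM in TPN rats, against 13.3, 11.4 and 11.2 FPKM in control rats. Of the 100 rows with the smallest p among the 20562 tested, 18 were mitosis genes of the first list, which makes up 0.199% of the rows tested. These 18 are 43.9% of that list. Another 9 were of the second list, which makes up 84 of the 20562 rows. Both lists were chosen with earlier results of these data known.

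DNA replication precedes mitosis in the cycle, and its 45 genes were all measured. Their median log2 fold change was -0.21, with 11 lower and 1 higher in TPN without overlap and 8 lower and 1 higher at an unadjusted limma p under 0.05. Over all rows tested, 8.33% were lower and 6.08% higher without overlap, and 5.97% lower and 3.26% higher at that p. Rrm2, the subunit of ribonucleotide reductase that varies with the cycle, had 0.267, 0.184 and 0.146 FPKM in TPN rats, against 6.11, 5.93 and 3.18 FPKM in control rats (limma adjusted p = 0.113 over all rows and 0.0203 with a mean of at least 0.1 FPKM). Tk1, thymidine kinase, had 2.73, 1.14 and 2.81 FPKM in TPN rats, against 7.81, 5.70 and 5.71 FPKM in control rats. Pcna, the clamp of the replication fork, averaged close to the same in both groups, with 12.2, 13.9 and 16.1 FPKM in TPN rats, against 16.0, 10.9 and 15.7 FPKM in control rats. Mcm2, a subunit of the replicative helicase, had 3.61, 1.52 and 1.19 FPKM in TPN rats, against 2.57, 1.75 and 3.12 FPKM in control rats, with overlap. Whether the mitosis genes and the replication genes differ from each other was not tested.

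Upstream of both, the 18 measured G1 cyclins, kinases and E2F factors had a median log2 fold change of -0.10, with 5 lower and 1 higher in TPN without overlap. The shares of all rows tested were 8.33% lower and 6.08% higher. Ccnd1, cyclin D1, which links growth signals to the cycle, had 1.78, 1.67 and 2.62 FPKM in TPN rats, against 14.7, 4.99 and 14.6 FPKM in control rats (log2 fold change -1.92, limma adjusted p = 0.250 over all rows). Tfdp2, a binding partner of E2F factors, had 1.5, 0.941 and 1.1 FPKM in TPN rats, against 2.46, 2.33 and 3.96 FPKM in control rats. The other 3 genes lower without overlap were the E2F factors E2f2, E2f7 and E2f8, named after their values were seen, and E2f1 was not analysed here. In the list of pocket proteins and the MuvB core, 9 genes were measured with a median of -0.20. Of these, 1 was lower in TPN without overlap, a share near the 8.33% of all rows tested. That gene was Mybl2, a partner of MuvB in activating mitosis genes, with 0.0933 and 0.0519 FPKM in TPN rats 1 and 2 and listed at 0 in TPN rat 3, against 0.238, 0.192 and 0.221 FPKM in control rats. Rbl2, a pocket protein of resting cells, had 7.59, 6.41 and 7.86 FPKM in TPN rats, against 8.84, 7.42 and 8.94 FPKM in control rats.

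Among CDK inhibitors and growth arrest genes, 15 were tested. Their median log2 fold change was -0.09, and 4 were lower and 1 higher in TPN without overlap, against 8.33% and 6.08% of all rows tested. Cdkn1a, the inhibitor p21, overlapped, with 3.69, 15 and 1.24 FPKM in TPN rats, against 5.04, 5.58 and 2.65 FPKM in control rats. Cdkn2c, an inhibitor of Cdk4 and Cdk6, had 1.46, 1.52 and 0.878 FPKM in TPN rats, against 2.90, 2.35 and 1.85 FPKM in control rats. Cdkn2a was listed at 0 in all 6 rats. Of 12 genes of liver growth signals, 2 were lower in TPN without overlap, against 8.33% of all rows tested. Igf1, the insulin-like growth factor made by liver, had 219, 214 and 133 FPKM in TPN rats, against 459, 290 and 457 FPKM in control rats, and Ghr, the growth hormone receptor, 85.2, 103 and 141 FPKM in TPN rats, against 195, 156 and 171 FPKM in control rats. Hgf, the hepatocyte growth factor, had 11.2, 8.0 and 7.46 FPKM in TPN rats, against 5.20, 8.21 and 4.77 FPKM in control rats, with overlap. None of these lists held a gene past limma's adjusted threshold over all rows or after the filter at 0.1 FPKM. Together they held 12 genes at an unadjusted limma p under 0.05, all lower in TPN, against 5.97% of all rows tested.

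**Figure D4:**
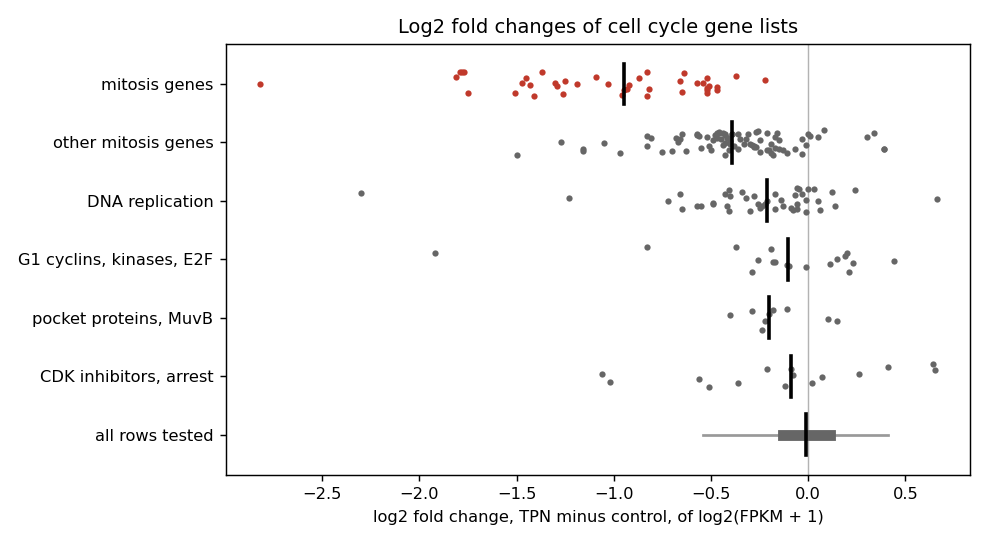
Log2 fold change of log2(FPKM + 1), TPN minus control, for each gene of 6 cell cycle lists (points, with vertical jitter for legibility) and the median of each list (black line). The bottom row gives all rows tested, with the interquartile range as a thick bar and the 5th to 95th percentile as a thin line. All 41 mitosis genes lie left of 0 with a median of -0.95, against -0.21 for DNA replication genes.

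The precursors of red cells divide, and erythroid (red cell lineage) markers were lower in TPN too. Of 15 measured erythroid markers, 10 were lower in TPN without overlap, against 8.33% of all rows tested. After the filter at 0.1 FPKM, 3 of them passed limma's adjusted threshold, against 0.165% of 16361 rows called lower in TPN. These were Hbb, Hba-a2 and Alas2, the last 2 named because they passed. The summed level of the 15 markers ran from 232 to 578 FPKM in TPN rats, against 2127 to 2423 FPKM in control rats. Most of that sum is globin, whose near-identical gene copies cannot be told apart with certainty. Hbb, a beta globin, had 71.5, 157 and 117 FPKM in TPN rats, against 601, 668 and 676 FPKM in control rats (limma adjusted p = 0.128 over all rows and 0.0377 after that filter). Hba-a2, an alpha globin, had 42.6, 122 and 76.3 FPKM in TPN rats, against 454, 451 and 548 FPKM in control rats (limma adjusted p = 0.0466 after that filter). Alas2, the first enzyme of heme synthesis in red cell precursors, had 0.625, 1.62 and 1.17 FPKM in TPN rats, against 5.65, 4.55 and 6.5 FPKM in control rats (limma adjusted p = 0.0457 after that filter). In all 3 the groups lay far apart. Hba-a1, the other alpha globin listed, did not pass (limma adjusted p = 0.0534 after that filter), with 115, 296 and 209 FPKM in TPN rats, against 1066, 999 and 1183 FPKM in control rats. Of the markers at low levels, Ermap and Rhag were listed at 0 in all 3 TPN rats, while Klf1, Tal1, Epor and Epb42 overlapped between the groups (these 6 were named after their values were seen). TPN rat 1 had the lowest erythroid sum and the highest mitosis sum of the TPN rats. The part of erythroid cells in the mitosis result was not tested.

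Sums of immune cell markers overlapped between the groups. For the counts that follow, 8.33% of all rows tested were lower and 6.08% higher in TPN without overlap. Of 11 T and NK cell markers, 2 were lower in TPN without overlap. All 11 summed to 18.5 to 24.4 FPKM in TPN rats, against 16.9 to 29.5 FPKM in control rats. Most of these sums was Cd4, with 17.6, 16.9 and 15.2 FPKM in TPN rats, against 16.7, 21.2 and 12.8 FPKM in control rats. Cd3e, Cd3d and Cd3g, named after their values were seen, averaged only 0.225, 0.106 and 0.289 FPKM over all rats. The sums thus follow Cd4 and do not measure T and NK cells alone, and which cells carried Cd4 was not tested. The 7 B cell markers, which all overlapped, summed to 2.44 to 5.25 FPKM in TPN rats, against 2.43 to 5.99 FPKM in control rats. Of 10 Kupffer cell and macrophage markers, 3 were higher in TPN without overlap, with sums from 540 to 834 FPKM in TPN rats, against 434 to 646 FPKM in control rats. Of 8 stellate cell markers, 2 were lower in TPN without overlap, with sums from 84.6 to 113 FPKM in TPN rats, against 117 to 184 FPKM in control rats, 2 ranges that did not meet. Col3a1 made up most of the stellate sums, with 54.1, 76.9 and 60.8 FPKM in TPN rats, against 115, 132 and 79.5 FPKM in control rats. The log2 fold change was positive for 3 of the 8 markers. Cholangiocyte markers, 6 in all, summed to 6.42 to 8.14 FPKM in TPN rats, against 10.7 to 14 FPKM in control rats, and 2 of them were lower in TPN without overlap. The 6 endothelial markers measured all overlapped, with sums from 66.2 to 84.5 FPKM in TPN rats, against 55.7 to 89.5 FPKM in control rats. Of 8 neutrophil markers, 2 were lower and 1 higher in TPN without overlap, with sums from 14.3 to 41.6 FPKM in TPN rats, against 6.37 to 25.7 FPKM in control rats. The part of any of these cells in the mitosis result was not tested.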

How the data were processed

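Liver RNA of 6 rats was analysed, 3 TPN and 3 control, grouped by their titles. The authors deposited 1 table of FPKM values per row and library. Per the submitters' processing notes, the tools were Bowtie 0.12.2 and Cufflinks with build Rnor_6.0. No strand setting is given in the sources used here, and antisense or overlapping reads cannot be told apart. Low FPKM values showed no whole-read steps (at most 0.853% of ratios under 0.3 FPKM fell in a bin of 0.01 log2), so read depth is unknown, no counting interval is given, and no count test was run.

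Values were used as log2(FPKM + 1). limma 3.58.1 (R 4.3.3, trend and robust settings, group as the only term) was fitted to 20562 rows above 0 in at least 1 library, with Benjamini-Hochberg adjustment over all of them and a threshold of 0.05. The scripts were tested on simulated data. The other 5364 rows were at 0 in all libraries. Alternatives were other pseudocounts, filters on the mean, scalings, moderation, sample weights, a replicate block, summed symbols and leaving out rats. No label names a batch. Nothing in the labels beyond the numbers says how libraries of a group were obtained, so p-values measure the spread between these samples only.

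The mitosis genes and the 16 other lists were chosen with earlier results of these data known. Of 322 entries in all, 314 matched by symbol and 1 through the synonyms or Ensembl identifiers that RefSeq lists for its symbol. The other 7 were not analysed here, among them Ccnb2, Nek2, E2f1, Cdkn2d, Pecam1 and Saa4. Values in every rat were given for mitosis genes past the threshold and for 15 fixed by name. In other lists, at most 4 genes with the smallest p and a mean of at least 0.5 FPKM were named, or the 2 highest markers, besides a few fixed by name. Exceptions are stated where they occur. Means over 3 members listed at 0 in a rat are not given. Promoters came from RefSeq (GRCr8), matched by symbol, and coordinates are of that build only.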

Additional observations from a re-analysis of the deposited data

How the results depend on the processing

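With no mean filter, limma's adjusted threshold was passed by 0 of 41 mitosis genes under other pseudocounts, scalings and moderation, with symbols summed, with a replicate block, and in each fit that left out a rat (0 to 0). It was passed by 1 with sample weights, and by 7 with a mean of at least 0.1 FPKM and 7 with a mean of at least 1 FPKM. With a mean of at least 5 FPKM it was passed by 0, since Stmn1, the 1 gene left, had a limma adjusted p of 0.0625. The filters on the mean test fewer rows and use the mean over both groups. Settings combined with the filter at 0.1 FPKM were added after seeing the data. With them the count of 7 became 1 with median-ratio scaling, 1 with quantile normalisation, 1 without trend and robust settings, 11 with a pseudocount of 0.1, and 0 to 2 when a rat was left out. It was 2 without control 2 and TPN 1 together, a choice also made after seeing the data. The median log2 fold change of -0.95 became -2.16 and -2.65 with pseudocounts of 0.1 and 0.01, -1.31 with TPM scaling, and -1.43 and -1.78 with a mean of at least 1 and 5 FPKM, where 19 and 1 genes were left. It ran from -1.06 to -0.78 when a rat was left out. Genes without overlap numbered 19 and 1 under those 2 filters, for the same reason, and 39 to 41 under the other settings. Of 717 single-gene values recomputed over 19 settings, 0 reversed and 15 gained a call. None could lose one, since no gene was called over all rows. Same-numbered rats of the 2 groups deviated with correlations of -0.2, -0.122 and 0.297. With 3 rats per group these values cannot tell whether the numbers pair the rats. With the replicate block, 0 genes passed over all rows and the median was -0.95, and 9 passed with a mean of at least 0.1 FPKM, 6 of them among the 7. The causes of these changes were not tested where the number of genes or rows does not show them. Unknown depth limits what can be said of the 22 genes under a mean of 1 FPKM.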

Other observations

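The genes given here were chosen after their values were seen, and no test of a difference between genes was run. The 3 Cdc25 phosphatases, which activate cyclin-dependent kinases, had different patterns. Cdc25b had 0.426, 0.273 and 0.382 FPKM in TPN rats, against 2.18, 1.41 and 2.66 FPKM in control rats, without overlap. Cdc25a had 3.10, 3.56 and 4.47 FPKM in TPN rats, against 2.47, 2.16 and 3.16 FPKM in control rats, with overlap, and Cdc25c had 0.671, 0.290 and 0.443 FPKM in TPN rats, against 0.723, 0.485 and 0.517 FPKM in control rats. Mcm10, which helps to start DNA replication, was the replication gene higher in TPN without overlap, with 1.59, 2.76 and 1.72 FPKM in TPN rats, against 0.651, 1.03 and 0.993 FPKM in control rats.

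Gtse1, a microtubule-binding protein of G2 and mitosis, had 1.20 FPKM in TPN rat 1 but 0.0295 and 0.0170 FPKM in TPN rats 2 and 3, against 1.09, 0.800 and 0.739 FPKM in control rats. Spag5 (astrin, a spindle protein) stood in 2 rows of the table that did not move alike. In 1 row it had 0.101, 0.0354 and 0.0523 FPKM in TPN rats, against 0.694, 0.583 and 0.289 FPKM in control rats, and in the other 1.43, 0.677 and 1.69 FPKM in TPN rats, against 1.07, 1.17 and 1.18 FPKM in control rats. Stathmin and Mad2l1 were the mitosis genes with a mean of at least 1 FPKM in TPN liver, against 29 genes with such a mean in control liver.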
